A study of Mus musculus with 8 samples.

Results

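Connexins are the membrane proteins of gap junctions, and the 7 connexin genes described here are *Gja1* (Cx43), *Gja3* (Cx46), *Gja4* (Cx37), *Gja5* (Cx40), *Gjc1* (Cx45), *Gjb2* (Cx26) and *Gjb6* (Cx30). They were taken by gene symbol from a table of 53465 genes, which holds 20 connexin genes in all, and the rule uses the symbol alone. RNA-seq of polyadenylated RNA was performed on ventricles of mouse hearts at embryonic day 9.5 (E9.5), in 4 samples of wild-type embryos (WT) and 4 samples of the genotype *Nrg-1flox;Tie2-Cre* (KO). In the KO embryos *Nrg1*, which encodes the ligand neuregulin-1, was deleted with the *Tie2-Cre* driver line, which is active in endothelial cells including the endocardium, so that the cardiomyocytes, where most cardiac connexin is made, were not the cells targeted. The labels do not say whether a sample was 1 embryo or a pool, which *Nrg1* exons were floxed, or which alleles the WT embryos carried, and the p-values below measure the spread between these samples. The comparison asks how the connexin transcripts of the ventricle differ when endothelial *Nrg1* is deleted, with *Gja5* of the trabeculae and *Gja1* of the working myocardium set against the early *Gjc1* and the endothelial *Gja4*.

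A gap junction channel is formed by a ring of connexin subunits in each of a pair of neighbouring cells, and it passes ions and small molecules from cell to cell. In the heart these channels carry the action potential. Cx45 is the connexin of the earliest heart tube and later of the slow-conducting nodes. Cx40 and Cx43 form channels of higher conductance, Cx40 in the trabeculae, the atria and the fast conduction system, and Cx43 in the ventricular wall. Cx37 and Cx40 are connexins of arterial endothelium, and Cx46, Cx26 and Cx30 are best known from the lens (Cx46), skin, liver and inner ear.

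The targeted gene was measured first. *Nrg1* had 156, 131, 121 and 173 counts in WT replicates 1 to 4 and 61, 59, 71 and 72 counts in KO replicates 1 to 4, a log2 fold change of −1.07 ± 0.14 (SE) in edgeR's quasi-likelihood test (FDR = 0.0027). Total counts per sample were between 11852372 and 14360323. KO replicate 1 stood apart from the other samples. Its mean root mean square distance to the other samples of its group, in log2 CPM, was 0.602, against 0.480 to 0.483 in the other KO samples and 0.381 to 0.391 in WT, and hemoglobin transcripts made up 6.26% of its counts, against 1.93% to 3.89% in the other KO samples and 0.671% to 0.799% in WT. Most connexin results below that rest on KO replicate 1 are therefore given with and without it. The labelled tissue was checked by its markers. None of 16 cardiomyocyte markers is at 0 and none passed edgeR's test at FDR under 0.05 (2 were lower at an unadjusted p under 0.05, 2 passed with DESeq2, both lower, and in edgeR without KO replicate 1, 2 were higher and 1 was lower), with a summed level of 42020 to 44480 CPM (counts scaled to a common library size) in WT and 39760 to 43460 CPM in KO. All 12 erythroid markers measured were higher in KO, with a median log2 fold change of 2.44 and a summed level of 6735 to 8142 CPM in WT and 19920 to 68910 CPM in KO. In such bulk tissue, fewer cells of a type and less RNA per cell cannot be told apart.

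Of the 7 connexin genes, 5 passed the filter on low counts. *Gjc1* and *Gja3* were lower in KO at FDR under 0.05, and none was higher, also at an unadjusted p under 0.05 and with DESeq2 (0 genes in each). Over all 14451 genes tested, 3.5% were called lower and 5.11% higher, with a median log2 fold change of 0.00 (−0.0014). *Gja3* passed the filter only through its WT samples and had to differ to be tested, so its call carries no weight. The 4 connexin genes with substantial counts, *Gja1*, *Gja5*, *Gjc1* and *Gja4*, are described first. All CPM values are scaled with TMM normalization factors.

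The upstream sequences of *Gja5*, *Gja1* and *Gja4* are shown because these are the trabecular, the working-myocardial and the endothelial connexin, and because *Gja5* and *Gja4* varied together between samples while *Gja1* parted from both in KO replicate 1. Each is the 250 bases before the annotated start in RefSeq, on build GRCm38.p6, printed 5′ to 3′ on the strand of the gene, with motif matches in capitals. The window of *Gja5* is chr3:97032152-97032401 on the plus strand, that of *Gja1* is chr10:56377050-56377299 on the plus strand, and that of *Gja4* is chr4:127314040-127314289 on the minus strand.
Gja5: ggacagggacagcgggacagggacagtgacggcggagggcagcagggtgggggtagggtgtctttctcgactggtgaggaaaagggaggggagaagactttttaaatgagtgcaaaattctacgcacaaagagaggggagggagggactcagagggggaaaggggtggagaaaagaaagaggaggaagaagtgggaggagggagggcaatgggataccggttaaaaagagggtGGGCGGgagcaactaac
Gja1: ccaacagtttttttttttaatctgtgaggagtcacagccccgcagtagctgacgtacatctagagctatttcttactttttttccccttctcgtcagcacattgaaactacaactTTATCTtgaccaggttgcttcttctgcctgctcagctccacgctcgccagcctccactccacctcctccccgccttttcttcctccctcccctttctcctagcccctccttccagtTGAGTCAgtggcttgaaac
Gja4: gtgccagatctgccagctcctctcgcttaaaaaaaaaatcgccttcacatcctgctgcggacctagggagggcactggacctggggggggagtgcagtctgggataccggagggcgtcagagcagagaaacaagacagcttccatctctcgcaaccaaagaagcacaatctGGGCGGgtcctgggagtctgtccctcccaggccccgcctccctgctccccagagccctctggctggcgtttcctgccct
The 6 motif words given next were searched on both strands in the windows of the 6 of 7 genes that the RefSeq table holds. Of all 32851 windows of this length in the table, the T-box word GGTGTG occurs in 16.3%, the NK2 word TNAAGTG in 10.1% and the GATA factor word AGATAA in 9.99%. The Sp1 word GGGCGG occurs in 32.7%, the AP-1 word TGANTCA in 6.75% and the word of the TATA box, TATAAA, in 12.4%. No pair of these words overlaps in the windows described. *Gja5* holds the Sp1 word at bases −17 to −12 from its start and *Gja4* holds it at −79 to −74. *Gja1* holds the GATA word on the minus strand at −135 to −130 and the AP-1 word at −19 to −13. The T-box word is in none of the windows of these 3 genes. GC content was 56.4% for *Gja5*, 61.2% for *Gja4* and 50% for *Gja1*, against a median of 52.4% over all windows. A match here is a stretch of letters and was not tested as a binding site.

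*Gjc1* encodes Cx45, the low-conductance connexin of the early heart tube. The gene (ENSMUSG00000034520) spans bases 102799579 to 102819700 of chromosome 11 of GRCm38, minus strand, and its coding sequence lies in a single exon. Its level in WT replicates 1 to 4 was 76.1, 71.9, 77.2 and 71.0 CPM, and in KO replicates 1 to 4 it was 52.7, 62.8, 64.9 and 63.1 CPM. Every KO sample was below every WT sample, which was so for 9.45% of all genes tested, and KO replicate 1 was the lowest. The mean was 74.0 ± 3.06 CPM in WT and 60.9 ± 5.51 CPM in KO (SD, n = 4 each). The KO level was thus 0.823 of the WT level, with a log2 fold change of −0.28 ± 0.07 (SE; 95% interval −0.45 to −0.12), and it passed edgeR's quasi-likelihood test (FDR = 0.0435, adjusted by Benjamini-Hochberg over all genes tested). Its log2 fold change was −0.22 without KO replicate 1 (FDR = 0.0146). The call lay close to the threshold. Leaving out 1 sample at a time gave log2 fold changes from −0.31 to −0.22, and FDR stayed under 0.05 in 1 of 8 such fits, the one without KO replicate 1, with a highest FDR of 0.13. The call was also lost with no filter on low counts (FDR = 0.0537) and with hemoglobin and mitochondrial genes removed (FDR = 0.0519). With replicate number fitted as a block it was lost as well (FDR = 0.102). Divided by the summed level of the cardiomyocyte markers in the same sample, *Gjc1* was lower in KO by a log2 difference of −0.26 (two-sided exact permutation test over 70 relabellings, p = 0.0286, the smallest p that 4 against 4 samples can give, and adjusted p = 0.114 over 4 such tests, which does not pass). On the same scale *Gja5* differed by −0.38 (exact permutation p = 0.257, adjusted p = 0.514) and *Gja1* by 0.15 (exact permutation p = 0.514, adjusted p = 0.685). Without KO replicate 1 these scaled differences were −0.22 for *Gjc1*, −0.14 for *Gja5* and −0.01 for *Gja1*.

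*Gja5* encodes Cx40, the connexin of the trabeculae and of the later fast conduction system. The gene (ENSMUSG00000057123) spans bases 96904693 to 97077416 of chromosome 3, plus strand. Its level was 102 CPM, 116 CPM, 85.3 CPM and 75.6 CPM in WT replicates 1 to 4, and 39.8, 90.6, 78.0 and 87.5 CPM in KO replicates 1 to 4. KO replicate 1 was below all other samples, while the other 3 KO samples lay within the range of WT. The mean was 94.9 ± 18.1 CPM in WT and 74.0 ± 23.4 CPM in KO (SD, n = 4 each). The log2 fold change was −0.36 ± 0.23 (SE; 95% interval −0.88 to 0.16) and did not pass the test (edgeR, FDR = 0.377). It was −0.15 without KO replicate 1 (95% interval −0.44 to 0.13; FDR = 0.457). A fall of the size fitted for *Gjc1* lies inside both intervals, so these data do not show that *Gja5* was the same in both genotypes. The coefficient of variation of *Gja5* was 19.0% in WT and 31.7% in KO, against counting errors of 2.80% and 3.22%, so that sequencing depth was not what limited its precision. The spread in KO came from KO replicate 1, since the other 3 KO samples had a mean of 85.4 ± 6.58 CPM (SD, n = 3).

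The counting of *Gja5* has a limit that the other 3 genes lack. RSEM shares reads among genes, and the expected counts of *Gja5* were fractional in 8 of 8 samples. Of the 60-base windows of its transcript *Gja5-203*, 23.4% (846 of 3609) also occur in transcripts of *Gpr89* and *Zfp697*, while *Gja5-201* and the annotated full-length transcripts of the other members share none with another gene. *Gpr89* shares 165 exon bases with *Gja5* on the opposite strand, and the library kit is not described as keeping strand. Neither neighbour passed the test (*Gpr89* log2 fold change 0.05, FDR = 0.735 and *Zfp697* −0.05, FDR = 0.883). Their part in the *Gja5* values was not tested further.

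*Gja1* encodes Cx43, the main connexin of the working ventricular myocardium, and the gene (ENSMUSG00000050953) spans bases 56377330 to 56402513 of chromosome 10, plus strand. Its level was 126, 134, 112 and 92.1 CPM in WT replicates 1 to 4 and 164 CPM, 119.6 CPM, 103 CPM and 120.1 CPM in KO replicates 1 to 4. The groups overlapped and KO replicate 1, the lowest sample for *Gja5*, was the highest for *Gja1*. The mean was 116 ± 18.4 CPM in WT and 127 ± 26.1 CPM in KO (SD, n = 4 each). The log2 fold change was 0.13 ± 0.15 (SE; 95% interval −0.21 to 0.47; edgeR, FDR = 0.654). Without KO replicate 1 its sign turned, to −0.02 (95% interval −0.27 to 0.23; FDR = 0.927), so that no direction can be given for *Gja1*.

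*Gja4* encodes Cx37, a connexin of arterial endothelium and endocardium, and is thus expressed in the cells that *Tie2-Cre* targets. The gene (ENSMUSG00000050234) spans bases 127311421 to 127314039 of chromosome 4, minus strand. Its level was 30.0, 29.1, 27.3 and 26.3 CPM in WT replicates 1 to 4 and 16.6, 27.2, 24.2 and 28.3 CPM in KO replicates 1 to 4. KO replicate 1 was again the lowest of all samples, and the groups overlapped. The mean was 28.2 ± 1.69 CPM in WT and 24.1 ± 5.26 CPM in KO (SD, n = 4 each), with a log2 fold change of −0.22 ± 0.14 (SE; 95% interval −0.55 to 0.10; edgeR, FDR = 0.372). Without KO replicate 1 the log2 fold change was −0.09 (FDR = 0.478). Of 14 endothelial and endocardial markers none is at 0, and *Tek*, the receptor gene whose promoter drives *Tie2-Cre*, was the 1 marker that passed edgeR's test with all samples, at −0.34 (FDR = 0.031). Lower at an unadjusted p under 0.05 were 5 of them, 2 passed with DESeq2, and 3 passed in edgeR without KO replicate 1, all lower. Their summed level was 1102 to 1189 CPM in WT and 981 to 1070 CPM in KO. Divided by that sum, *Gja4* differed between the genotypes by a log2 difference of −0.10 (two-sided exact permutation test, p = 0.943, adjusted p = 0.943), and by 0.08 without KO replicate 1.

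**Figure D1:**
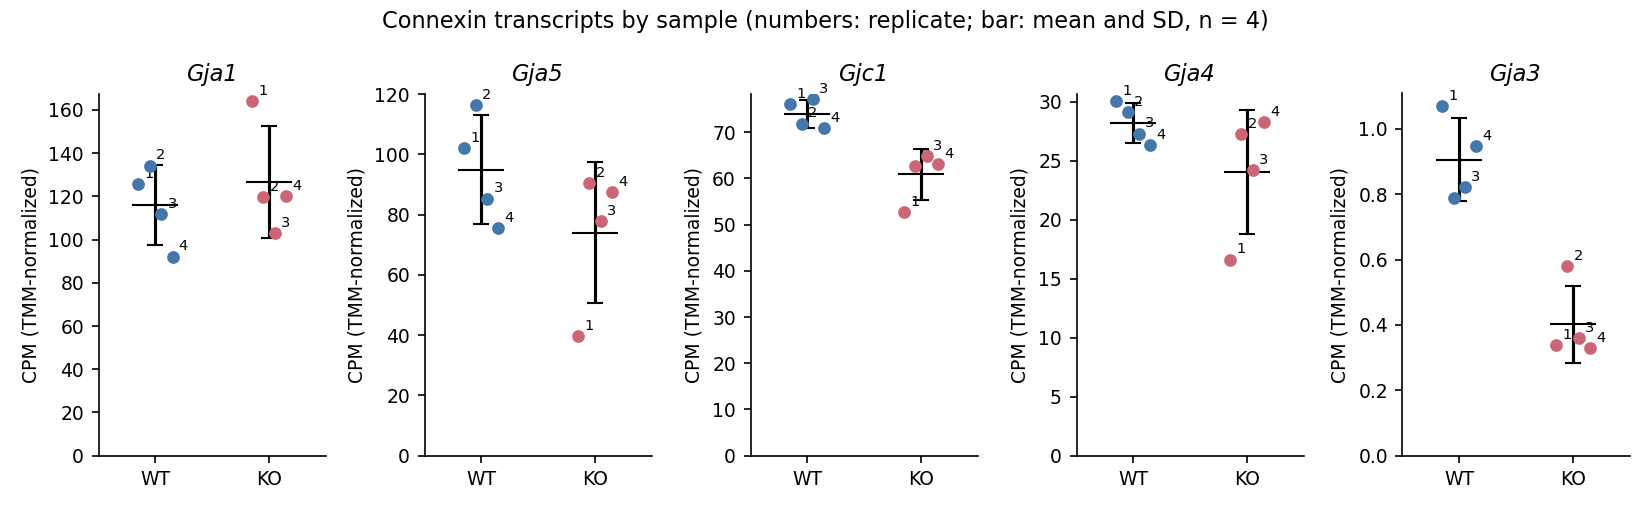
Level of each of the 5 connexin genes tested (y axis, TMM-normalized CPM, from 0) in the 4 WT and 4 KO samples, with points numbered by replicate and the bar giving mean and SD. For *Gjc1* and *Gja3* every KO point lies under every WT point, and KO replicate 1 is the lowest point for *Gja5*, *Gjc1* and *Gja4* and the highest for *Gja1*.

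*Gja3*, *Gjb2* and *Gjb6* form a cluster on chromosome 14, all on the minus strand, at bases 57034460 to 57058100, 57098600 to 57104702 and 57123303 to 57133611. *Gja3*, which encodes Cx46, had 14, 11, 10 and 14 counts in WT replicates 1 to 4 and 4, 8, 5 and 4 counts in KO replicates 1 to 4. All KO counts were below all WT counts, and no KO sample reached the 10 counts on which the filter rests. The summed counts were 49 in WT and 21 in KO, a ratio of 0.426 after scaling (95% interval 0.243 to 0.724, which covers counting error only). The fitted log2 fold change was −1.14 ± 0.30 (SE), with FDR = 0.0438 in edgeR's quasi-likelihood test, and this call was lost in 7 of 8 fits that left out 1 sample, KO replicate 1 among them (FDR = 0.0601). *Gjb2*, which encodes Cx26, had 1 count in WT replicates 2, 3 and 4 and in KO replicate 1 and 0 in the other samples, too few to compare (ratio 0.331, 95% interval 0.0063 to 4.13). *Gjb6*, which encodes Cx30, was at 0 in all 8 samples, which allows a level of up to 0.0569 CPM over the WT samples and 0.0566 CPM over the KO samples. *Gjb2* and *Gjb6*, both connexins of epithelia, were thus not measurable at this depth. Of 14 epithelial and foregut markers 3 were tested and none passed (edgeR; 1 was higher at an unadjusted p under 0.05, and 0 passed with DESeq2).

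**Figure D2:**
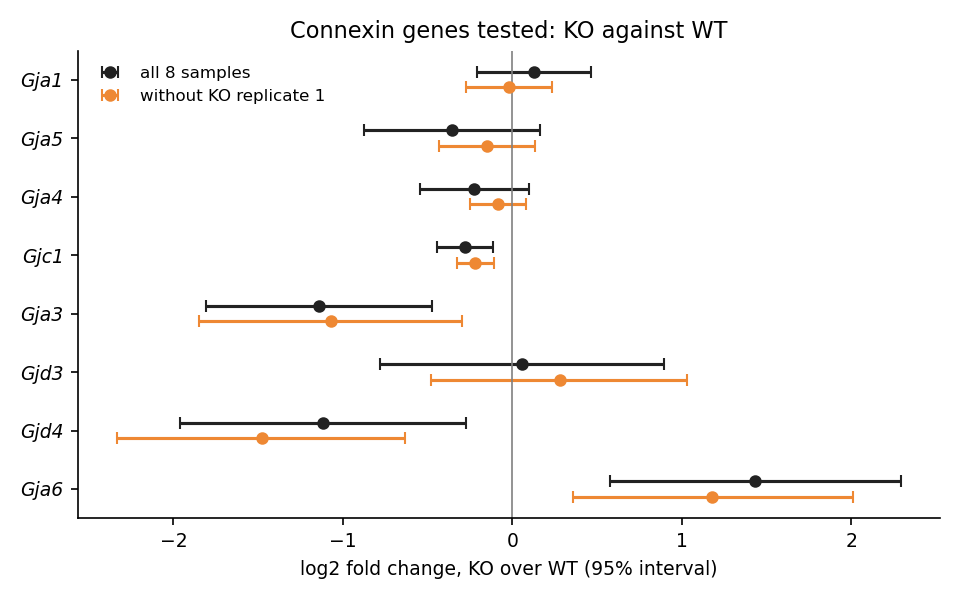
Log2 fold change of KO over WT (x axis) with its 95% interval for the 5 members and the 3 other connexin genes that passed the filter, with all 8 samples (black) and without KO replicate 1 (orange). For *Gja1*, *Gja5* and *Gja4* both intervals include 0, and the estimates for *Gja5* and *Gja4* lie closer to 0 without KO replicate 1.

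The levels of the 4 main connexin transcripts were compared per length. In CPM per kb of the transcript with the longest coding sequence, the WT means were 36.5 ± 5.79 for *Gja1*, 32.0 ± 1.32 for *Gjc1*, 25.9 ± 4.92 for *Gja5* and 16.7 ± 1.0 for *Gja4* (SD, n = 4 each). In KO they were 39.8 ± 8.19 for *Gja1*, 26.3 ± 2.38 for *Gjc1*, 20.2 ± 6.39 for *Gja5* and 14.3 ± 3.12 for *Gja4*. *Gja1* was above *Gjc1* in 3 of 4 WT samples and 4 of 4 KO samples, *Gja5* was above *Gjc1* in 1 of 4 WT samples and 0 of 4 KO samples, and *Gja4* was the lowest in every sample. Neighbours in this order at the top, *Gja1* and *Gjc1*, overlapped in WT. Part of the order depends on the length used. With the shortest full transcripts *Gjc1* (39.2 CPM per kb) and *Gja1* (37.8 CPM per kb) changed places in the WT means while the order of the KO means stayed, and with the union of all annotated exons *Gja4* (16.7 CPM per kb) came first and *Gja1* (11.3 CPM per kb) last in WT, where in KO *Gjc1* (12.2 CPM per kb) was just below *Gja1* (12.4 CPM per kb).

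As shares of the sum of these 4 genes per kb, *Gja1* made up 32.7% ± 1.84 in WT and 39.8% ± 9.65 in KO, and *Gja5* made up 23.2% ± 2.11 in WT and 19.9% ± 5.67 in KO (SD, n = 4 each). KO replicate 1 gave most of this difference. Its *Gja1* share was 54.2% and its *Gja5* share 11.4%, and the lowest *Gja1* share in KO was 33.7%. *Gjc1* held 29.0% ± 2.99 in WT and 26.2% ± 2.18 in KO, and *Gja4* held 15.1% ± 0.89 in WT and 14.1% ± 2.53 in KO. With the union of all annotated exons as the length, the WT shares were 19.0% for *Gja1* and 28.3% for *Gja4*.

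**Figure D3:**
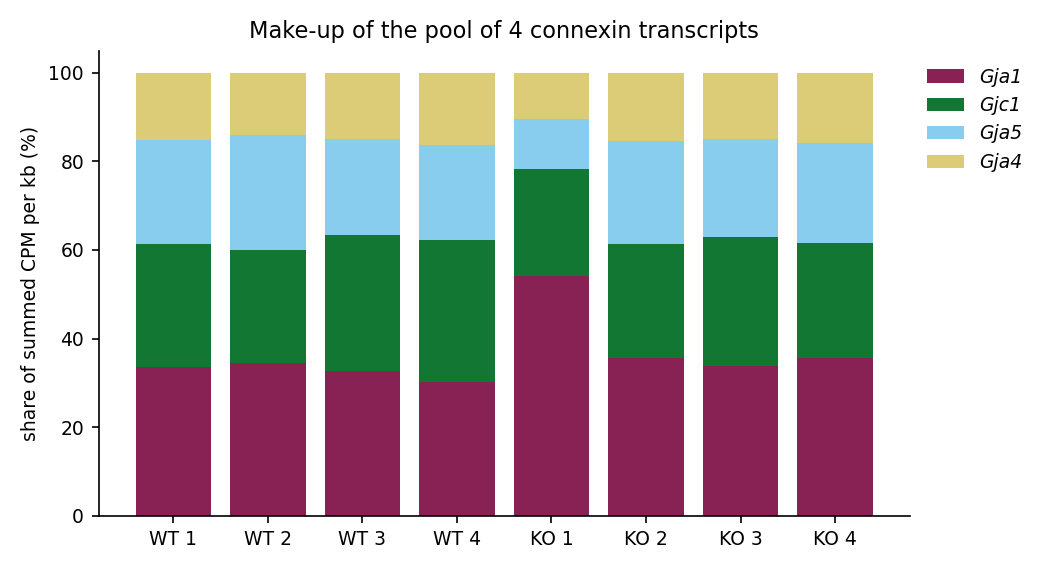
Share of each of *Gja1*, *Gjc1*, *Gja5* and *Gja4* (y axis, percent of their summed CPM per kb of the transcript with the longest coding sequence) in each WT and KO sample. The bar of KO replicate 1 stands apart, with *Gja1* at 54.2% and *Gja5* at 11.4%.

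The 5 ratios that set the trabecular and the working-myocardial connexin against the early and the endothelial one, and against each other, were compared within samples as log2 ratios of counts. The ratio of *Gja5* to *Gjc1* had a log2 mean of 0.34 ± 0.28 in WT and 0.21 ± 0.43 in KO (SD, n = 4 each; two-sided exact permutation test, p = 0.686, adjusted p = 0.686 over the 5 ratios), and its difference turned from −0.12 to 0.08 without KO replicate 1. The ratio of *Gja5* to *Gja4* had a log2 mean of 1.73 ± 0.20 in WT and 1.58 ± 0.22 in KO (exact permutation p = 0.4, adjusted p = 0.5), and the difference of −0.16 moved to −0.05 without KO replicate 1. The ratio of *Gja1* to *Gjc1* had a log2 mean of 0.63 ± 0.23 in WT and 1.04 ± 0.41 in KO (exact permutation p = 0.143, adjusted p = 0.357), and the difference of 0.41 fell to 0.21 without KO replicate 1. The ratio of *Gja1* to *Gja4* had a log2 mean of 2.03 ± 0.17 in WT and 2.40 ± 0.60 in KO (exact permutation p = 0.286, adjusted p = 0.476), and without KO replicate 1 its difference of 0.38 was 0.08. In none of these 4 ratios did the groups separate.

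The ratio of *Gja5* to *Gja1* separated the groups. The counts of *Gja5* per count of *Gja1* were 0.812, 0.867, 0.763 and 0.822 in WT replicates 1 to 4 and 0.243, 0.757, 0.756 and 0.729 in KO replicates 1 to 4. All KO values were below all WT values, but KO replicates 2, 3 and 4 lay less than 1 SD of WT (0.08 on the log2 scale) below the lowest WT sample. The log2 difference was −0.53, with a two-sided exact permutation p = 0.0286, the smallest this design allows, and an adjusted p = 0.143 over the 5 ratios, which does not pass. Without KO replicate 1 the log2 difference was −0.12 (exact permutation p = 0.0571). The size of this difference thus came mostly from 1 sample.

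**Figure D4:**
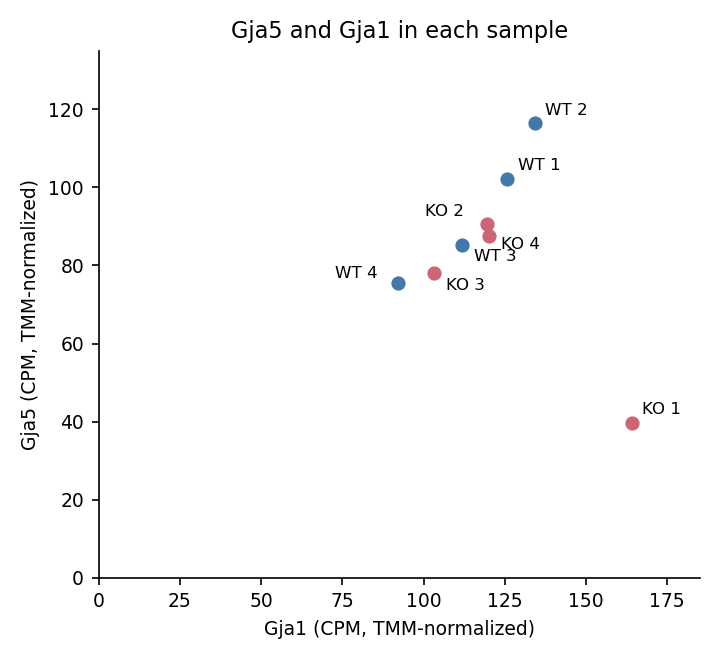
*Gja5* (y axis) against *Gja1* (x axis), both in TMM-normalized CPM, for each WT (blue) and KO (red) sample. The other samples lie near a common line, and KO replicate 1 lies apart from it, with the highest *Gja1* and the lowest *Gja5*.

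Between samples, *Gja5* and *Gja4* varied together (Pearson's r = 0.965 over 8 samples on the log2 CPM scale, 0.798 without KO replicate 1). *Gja1* and *Gja5* had r = −0.387 over 8 samples and 0.918 without KO replicate 1, so the sign of this relation was set by 1 sample. *Gjc1* had r = 0.773 with *Gja5* and 0.813 with *Gja4*, and 0.289 and 0.412 without KO replicate 1. These values are descriptions, since all genes of a sample share its library, and the genotypes were pooled. Among genes with a mean count of at least 100, the pattern most like that of *Gja5* was found for *Megf9* (r = 0.989), *Col18a1* (0.984) and *Hspa2* (0.983). For *Gja1* these were *Zbtb14* (0.970), *Vwa5a* (0.963) and *Zxdb* (0.951), for *Gjc1* they were *Taf13* (0.988), *Dhrs1* (0.985) and *Ppp1r14c* (0.982), and for *Gja4* they were *Snn* (0.990), *Tnni3* (0.981) and *Igfbp4* (0.981). Without KO replicate 1 the order changed for some of them. *Megf9* (r = 0.944) then came after *Col18a1* (0.981) and *Hspa2* (0.958), *Vwa5a* (0.945) came before *Zbtb14* (0.934), and *Igfbp4* fell to 0.834. *Tnni3* encodes cardiac troponin I, a protein of the cardiomyocyte.

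Of the 13 other connexin genes, *Gja6*, *Gjd3* and *Gjd4* passed the filter. *Gja6* had 11, 11, 16 and 21 counts in WT replicates 1 to 4 and 52, 18, 35 and 45 counts in KO replicates 1 to 4, so that KO replicate 2 fell within the WT range. Its log2 fold change was 1.43 ± 0.38 (SE; edgeR, FDR = 0.0478), or 1.18 without KO replicate 1 (FDR = 0.0539). The call was lost in 7 of 8 fits that left out 1 sample (highest FDR = 0.138), with limma-voom (FDR = 0.0934) and with the replicate block (FDR = 0.0641). *Gjd4* (Cx39) had 19, 13, 9 and 17 counts in WT and 10, 5, 4 and 6 counts in KO, with a log2 fold change of −1.12 that did not pass with all samples (FDR = 0.1) and of −1.48 without KO replicate 1 (FDR = 0.0256). In the latter fit no KO sample reached 10 counts, so *Gjd4* was tested only through its WT samples, and that call, like that of *Gja3*, carries no weight. *Gjd3* had a log2 fold change of 0.05 (FDR = 0.948). The other 10 connexin genes had at most 14 counts in any sample and were not tested. The pannexins, which form channels of a single membrane, gave log2 fold changes of −0.09 for *Panx1* (FDR = 0.693) and −0.11 for *Panx2* (FDR = 0.679). Both signs turned without KO replicate 1.

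Genes that act on connexins were counted by list. Of 32 tested genes for connexin scaffolding, trafficking and turnover, 3 were lower in KO and none was higher (2 at an unadjusted p under 0.05 and 0 with DESeq2). Of all genes tested 3.5% were lower and 5.11% higher. The median log2 fold change was −0.04 against −0.0014 over all genes. The 3 lower genes were *Prkce*, a protein kinase C (66.1 ± 0.95 CPM in WT and 46.2 ± 3.20 CPM in KO; log2 fold change −0.52, FDR = 0.00185), *Dsp*, the desmosomal plaque protein desmoplakin (890 ± 48.6 CPM and 659 ± 23.6 CPM; −0.43, FDR = 0.00228), and *Nedd4*, a ubiquitin ligase (2090 ± 61.3 CPM and 1770 ± 64.5 CPM; −0.24, FDR = 0.0153). In the fit without KO replicate 1, 7 genes of this list were lower, beside 7.89% lower and 9.35% higher of all genes in that fit. Every KO sample was below every WT sample for 7 of the 32 tested genes, the 3 named ones among them, and above for 1. Over all genes tested these shares were 9.45% and 9.52%.

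Of 36 transcription factors and cofactors known or proposed to act on connexin genes, 8 were lower in KO and 2 were higher, with a median log2 fold change of −0.14. Over all genes tested 3.5% were lower and 5.11% higher, with a median of −0.0014. *Irx3*, an Iroquois factor of the trabeculae and the fast conduction system, had 25.1, 26.6, 24.2 and 21.5 CPM in WT replicates 1 to 4 and 4.49, 9.92, 10.6 and 11 CPM in KO replicates 1 to 4, with no overlap and a log2 fold change of −1.43 ± 0.22 (SE; edgeR, FDR = 0.00471). *Mef2c*, a factor of the early myocardium, fell (log2 fold change −0.42, FDR = 0.00718), as did *Tbx20*, a T-box factor (−0.31, FDR = 0.0165). *Sox17*, a factor of arterial endothelium, rose from 4.21 ± 0.43 CPM to 8.65 ± 2.04 CPM (1.03, FDR = 0.00743). These calls held without KO replicate 1, where 9 genes of the list were lower and 3 higher, again beside 7.89% lower and 9.35% higher of all genes.

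Genes that mark the same tissue as *Gja5* were counted next. Of 20 markers of fast conduction and trabeculae, some of which are also in the list of regulators, 9 were lower and 1 was higher. Their median log2 fold change was −0.40, and without KO replicate 1 these counts were 9 and 2. Over all genes tested 3.5% were lower and 5.11% higher, with a median of −0.0014. In the fit without KO replicate 1 the shares were 7.89% and 9.35%. The marker that was higher with all samples was *Nppb*, a natriuretic peptide gene named after its values were seen (log2 fold change 0.94, FDR = 0.0218). The summed level of the list was 2042 to 2456 CPM in WT and 2100 to 2354 CPM in KO. *Slit2*, a guidance ligand of the trabeculae, fell from 50.3 ± 9.92 CPM to 15.2 ± 2.31 CPM (log2 fold change −1.72, FDR = 0.00119). *Irx2* fell from 32.0 ± 2.50 CPM to 19.0 ± 0.92 CPM (−0.75, FDR = 0.00152), *Sema3a* from 50.9 ± 2.35 CPM to 23.7 ± 4.32 CPM (−1.10, FDR = 0.00161) and *Cgnl1* from 405 ± 10.2 CPM to 305 ± 11.1 CPM (−0.41, FDR = 0.00185; SD, n = 4 each, edgeR). Whether *Gja5* (−0.36, or −0.15 without KO replicate 1) differs from these genes was not tested. Of 10 markers of the compact wall, 4 were lower (*Tgfb2*, *Ccnd2*, *Tbx20* and *Hand1*, from −0.31 to −0.62) and none was higher, beside 3.5% lower and 5.11% higher of all genes. The median of this list was −0.22, and *Tbx20* and *Hand1* are also in the list of regulators. *Hey2*, a transcription factor of the compact wall named after its values were seen, was at 71.8 CPM in WT and 87.1 CPM in KO on average, with every KO sample above every WT sample, as for 9.52% of all genes (log2 fold change 0.28, FDR = 0.126, which does not pass), and was the 1 gene of the list higher at an unadjusted p under 0.05.

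**Figure D5:**
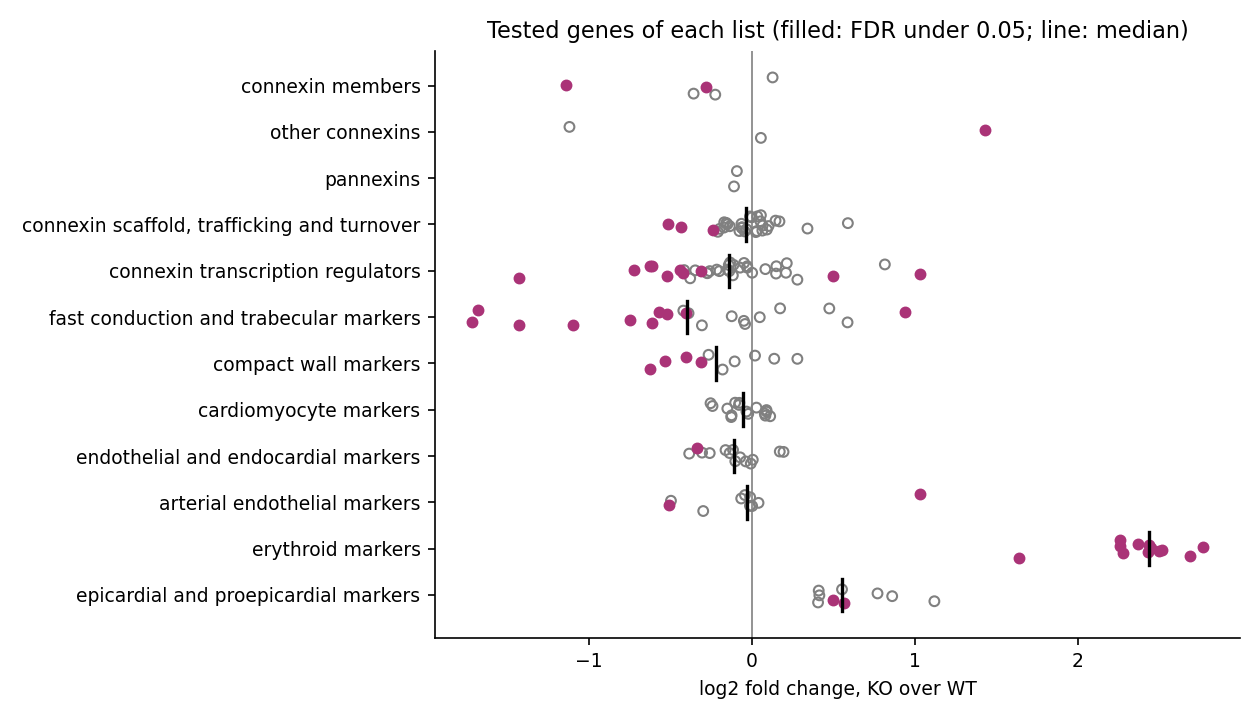
Log2 fold change of KO over WT (x axis) for each tested gene of 12 lists (rows), with genes at FDR under 0.05 filled, and the median of each list drawn as a vertical line for all but the connexin and pannexin rows. The medians lie at −0.40 for the fast conduction and trabecular markers and −0.06 for the cardiomyocyte markers, and all erythroid markers are filled, to the right.

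The remaining marker lists moved as follows, beside 3.5% lower and 5.11% higher of all genes tested. Without KO replicate 1 these shares were 7.89% and 9.35%. Of 10 arterial endothelial markers *Sox17* was higher and *Jag1* lower (−0.51, FDR = 0.0124), of 9 epicardial and proepicardial markers tested *Wt1* (0.57, FDR = 0.0126) and *Tbx18* (0.50, FDR = 0.0315) were higher (4 markers without KO replicate 1, and 5 at an unadjusted p under 0.05), and of 9 sinus and atrial markers tested *Tbx3*, a repressor of *Gja5* and *Gja1* in the nodes, was lower (−0.72, FDR = 0.0334). None of 4 neural markers tested and 1 liver marker tested passed in edgeR or DESeq2 (0 neural markers and the liver marker, higher, at an unadjusted p under 0.05). In KO replicate 1, where *Gja5* and *Gja4* were lowest, the erythroid sum was at its highest (68910 CPM) and the cardiomyocyte sum at its lowest (39760 CPM). Highest of KO there were the endothelial sum (1070 CPM against 981 to 1050 CPM) and the epicardial sum (513 CPM against 311 to 485 CPM). So were the epithelial (231 CPM against 151 to 189 CPM), neural (91.1 CPM against 65.0 to 80.7 CPM) and liver sums (12.3 CPM against 4.32 to 7.60 CPM). Single genes weighed on these sums, with the largest counts there from *Krt19* (3407, epicardial), *Krt8* (1658, epithelial), *Ets1* (856, neural) and *Afp* (63, liver). The epicardial markers *Tcf21* (143 counts) and *Upk3b* (555 counts) were instead the lowest of KO. Lowest there were also the arterial endothelial sum (505 CPM against 545 to 612 CPM) and the sinus and atrial sum (1951 CPM against 2621 to 2913 CPM). The compact wall sum (1481 CPM against 1771 to 1868 CPM) and the mitochondrial share (2.03% against 2.54% to 2.84%) were lowest too. The part of the erythroid RNA, of the cardiomyocyte share and of this sample's quality in the connexin values was not tested.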

How the data were processed

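RNA was purified with a PicoPure kit and polyA libraries of 4 WT and 4 KO samples were made with the NEBNext Ultra RNA kit and sequenced as 60-base single reads. The authors deposited expected counts per gene, which, per the submitters' processing notes, were estimated with RSEM 1.3.1 on GRCm38 after cutadapt. The aligner and the use of strand are not given in the sources used here. The deposited expected counts were rounded to whole numbers. Symbols were given to 53274 of 53465 genes, and 0 sample columns were left unmapped.

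KO and WT were compared with edgeR 4.0.16 under R 4.3.3 (TMM, filterByExpr with a minimum of 10 counts, quasi-likelihood test, Benjamini-Hochberg FDR under 0.05 over 14451 genes; 739 were higher and 506 lower in KO). The SE was obtained from the log2 fold change and the F statistic, as their size over √F, and the 95% interval from the SE and the t distribution. Ratios used a pseudocount of 0.5 and two-sided exact permutation tests over 70 relabellings. No pair of replicates matched within counting noise (lowest chi-square per degree of freedom 3.77), and all 8 samples were kept as separate. Counting intervals and limits at 0 (3 counts) cover counting error only.

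Members and gene lists were chosen with earlier results of these data known. The text gives every member, connexins and pannexins with at least 10 counts in at least 4 samples, at most 4 genes of each list past the threshold by smallest p, and 3 genes most like each main member. *Gpr89* and *Zfp697* were named for sequence shared with *Gja5*. The connexin and pannexin fits were also made with each sample left out, a replicate block, DESeq2 1.42.0, limma-voom (3.58.1), upper-quartile scaling, the likelihood ratio test of edgeR, other filters, and without hemoglobin and mitochondrial genes. The ratios were repeated with each sample left out, a pseudocount of 5 and the block, and the list counts with DESeq2, limma-voom and without KO replicate 1. The edgeR step was tested on simulated counts.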

Additional observations from a re-analysis of the deposited data

Results flagged for a closer look

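In the KO group 6 quantities had 1 sample far from the other 3 of its group, judged by its distance from the next value over the whole range of the 4 values. Chance alone gives such a gap in about 5% of groups, and 6 of 66 groups tested had one. In KO replicate 1 the log2 ratio of *Gja5* to *Gja1* was the lowest, with a gap of 0.966 of the range, and the log2 ratio of *Gja1* to *Gja4* was the highest, with a gap of 0.96. The *Gja1* share of the 4-gene pool was the highest there (0.904) and the *Gja5* share the lowest (0.895). The summed level of the fast conduction and trabecular markers was also the highest in KO replicate 1, with a gap of 0.857, at 2354 CPM against 2100 to 2136 CPM in the other KO samples and 2042 to 2456 CPM in WT. *Gja3* was the highest in KO replicate 2, with a gap of 0.88, at 8 counts against 4 or 5 in the other KO samples. The first 5 of these rest on the same sample and are not independent of each other.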

How the results depend on the processing

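The number of connexin members past the threshold was 2, both lower in KO. It was 1 with DESeq2, 1 with a minimum of 10 counts in every sample, 1 with hemoglobin and mitochondrial genes removed (*Gja3*, with *Gjc1* lost) and 0 with no filter on low counts, and it ranged from 0 to 1 with 1 sample left out. It stayed at 2 with limma-voom, the likelihood ratio test and upper-quartile normalization. *Gjc1* kept its direction in every fit and passed the threshold in 5 of 8 other fits (FDR from 0.0123 to 0.102). *Gja5* and *Gja4* kept their direction and passed in none. The number of all genes past the threshold was 1245 and ranged from 509 (without WT replicate 1) to 2523 (without KO replicate 1) with 1 sample left out. Without KO replicate 1 it was 2164 with DESeq2 and 2409 with limma-voom, alternatives chosen after seeing the data. Signs turned only for differences that did not pass the threshold in any fit. *Gjd3* was −0.037 with limma-voom, and with 1 sample left out *Gja1* ranged from −0.021 to 0.21, *Gjd3* from −0.30 to 0.28, *Panx1* from −0.15 to 0.011 and *Panx2* from −0.20 to 0.0081. With 1 sample left out the log2 difference of the *Gja5* to *Gjc1* ratio ranged from −0.23 to 0.082 and that of the *Gja5* to *Gja1* ratio from −0.67 to −0.12. In the latter the exact permutation p rose to between 0.286 and 0.429 when a WT sample was left out, by construction, since a smaller group that holds KO replicate 1 then gives larger differences.

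The labels share replicate numbers but name no pairing, and same-numbered samples did not deviate together (r from −0.09 to 0.02 over 4 pairs, and 0 of 4 KO samples correlated best with their own number). With the replicate block 616 genes and 0 members passed (*Gjc1* FDR = 0.102, and *Gja6*, no member, FDR = 0.0641), and the *Gja5* to *Gja1* ratio (−0.53) gave an exact sign-flip p = 0.125, the smallest that 4 pairs allow. Depth limits *Gja3*, *Gja6* and *Gjd4*, where counting error was 16.3% to 43.6% of the level, as well as *Gjb2* and *Gjb6*, and it limits the other members less, at 2.49% to 5.65%.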
